A study of Mus musculus with 8 samples.

Results

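The heart section labelled TAC-6w was compared with the heart section labelled sham across all genes of the spatial transcriptome (ST). Transverse aortic constriction (TAC) narrows the aortic arch, so that the left ventricle pumps against a higher pressure. All spots of both sections were members of the comparison, which gave 3869 of the 7160 spots of the 4 sections, and 10811 of the 32285 listed genes had at least 100 UMIs (unique molecular identifiers, each standing for 1 captured transcript) in either section. The TAC-6w group was a wild-type male C57BL/6J mouse labelled 8 weeks old, taken 6 weeks after constriction, and the sham group was a mouse of the same strain, sex and labelled age whose aorta was not constricted and for which the labels give no time after surgery. With 1 OCT-embedded section and 1 dissociated library per condition, no test between conditions was possible. The 95% intervals below cover counting error within a section only, not the difference between mice. By its label the TAC-6w section came from batch 3, the sham section shared batch 1 with TAC-2w, and TAC-4w was batch 2, so condition and batch cannot be told apart in this comparison.

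The names of the sections rest on the labels alone. The outlines of the deposited sections resemble maps printed with the study under other condition names, where the outline deposited as sham carries the name TAC-6w, that deposited as TAC-2w the name sham, that deposited as TAC-4w the name TAC-2w and that deposited as TAC-6w the name TAC-4w. Which set of names is right could not be settled here. Every direction below is therefore that of the section labelled TAC-6w relative to the section labelled sham.

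A ventricle under pressure enlarges its cardiomyocytes and returns to genes of the fetal heart, among them skeletal alpha-actin (Acta1), the natriuretic peptides (Nppa, Nppb) and beta-myosin heavy chain (Myh7). Fibroblasts lay down collagen and the matricellular proteins that organise it, which stiffens the wall. Immune cells enter the tissue and may raise antigen presentation through interferons. A spot of the array covers several cells, so a higher level in a spot can come from more cells of a type or from more RNA per cell, and these cannot be told apart.

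The sham section had 1676 spots with a median of 15488.5 UMIs, and the TAC-6w section had 2193 spots with a median of 20203 UMIs. Mitochondrial genes held 51.5% of the UMIs of sham and 44.2% of those of TAC-6w. Levels are given in CPM, the UMIs of a gene summed over all spots and scaled to a section total of 1e+06, which leaves out the 13 mitochondrial genes and 3 features that resemble ribosomal RNA (Gm42418, Gm26917 and AY036118). These totals were 12531634 UMIs in sham and 26834451 in TAC-6w, so that 3 UMIs, the floor used for a ratio, stood for 0.239 and 0.112 CPM. Both sections carried the ventricular markers Myl2, Myh6, Tnni3, Myl3, Pln and Ckmt2, whose summed level was 70530.5 CPM in sham and 58714 CPM in TAC-6w. Of the 6 atrial markers, Myl4 stood at 2.47 and 2.57 CPM and Myl7 at 0.718 and 1.19 CPM. Sln had 0 and 2 UMIs and Bmp10 0 and 3. Kcnj3 stood at 39.3 and 22.7 CPM and the natriuretic peptide gene Nppa at 220 and 1044 CPM. The 6 summed to 263 CPM in sham and 1071 CPM in TAC-6w.

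Most genes differed little between the sections, and more genes were past 2-fold upward than downward. The median ratio of TAC-6w to sham over the 10811 genes was 1.07, 7019 genes (64.9%) had a ratio above 1, and 9889 genes (91.5%) lay within 1.5-fold. In the TAC-6w section 208 genes (1.92%) were at least 2-fold higher and 28 genes (0.259%) at least 2-fold lower, with 63 and 12 of them past 3-fold. The limit of 100 UMIs admitted 2055 genes through the deeper TAC-6w section alone, and 140 of the 208 higher genes were among them. At the 2-fold limit, Ifit2 (ratio 2.00) and Cd74 (2.01) lay just inside and Vcan and Upp1 (both 2.00 when rounded) just outside among the higher genes, while Rbfox1 (0.494) lay just inside and Gpr22 (0.50) just outside among the lower genes. In spots of 20000 to 30000 UMIs, of which sham had 488 and TAC-6w 383, 55 of the 6509 genes with 100 UMIs there (0.845%) were at least 2-fold higher and 20 (0.307%) lower. Without that limit within the class, all 208 higher and all 28 lower genes kept their direction, and 159 and 21 of them were again past 2-fold. Those spots are a part of the same sections and no independent check. The labelled TAC-2w section, which shares the batch of sham, had 16 of 10229 genes (0.156%) at least 2-fold above sham and 81 (0.792%) at least 2-fold below it, and the labelled TAC-4w section had 252 of 9776 (2.58%) above and 101 (1.03%) below. All 3 comparisons share the sham section.

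**Figure D1:**
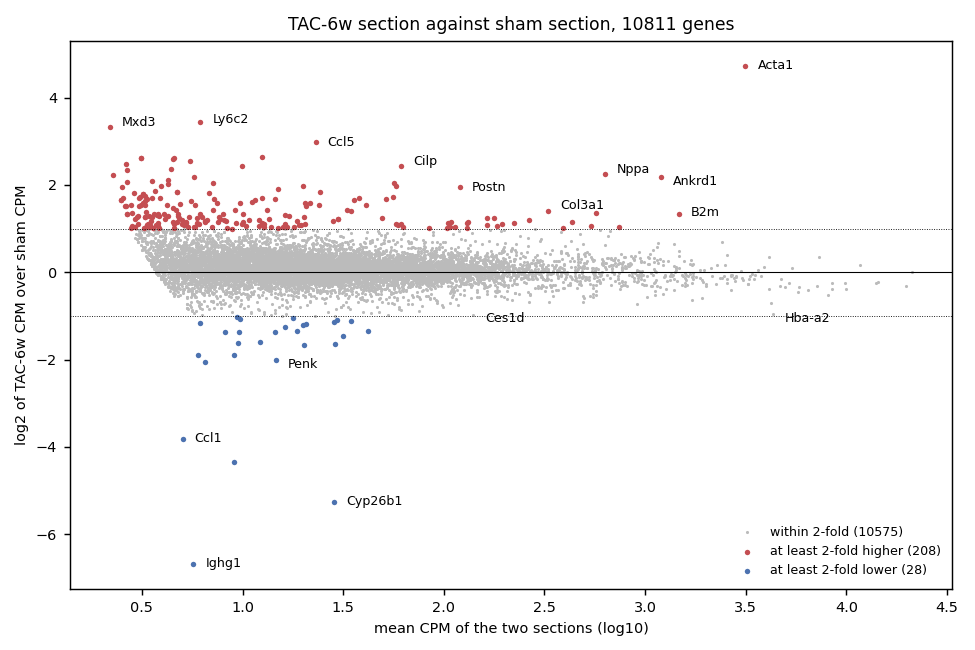
Each point is a gene; the x axis gives its mean level over both sections in CPM (log10) and the y axis the log2 ratio of TAC-6w to sham, with dotted lines at 2-fold. Acta1 stands alone at a high level and a ratio of 26.6, while Cyp26b1, Ccl1 and Ighg1 lie at the lower end; Ighg1 had 0 UMIs in TAC-6w and is drawn at the floor of 3 UMIs.

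Acta1, the actin of skeletal muscle that cardiomyocytes make in fetal life and under load, had the largest ratio of all 10811 genes. It stood at 228 CPM in sham, 353 CPM in TAC-2w, 2232 CPM in TAC-4w and 6065 CPM in TAC-6w, so the section labelled TAC-6w was 26.6-fold above sham (95% interval 25.6 to 27.6). It was 23.4-fold higher in spots of 20000 to 30000 UMIs. The skeletal myosins Myh4, Myh1 and Myh2 had 0 UMIs in TAC-6w and 0, 1 and 1 in sham. Among spots with at least 5000 counted UMIs, the median spot held 123 CPM of Acta1 in sham and 5898 CPM in TAC-6w. All 1531 such spots of TAC-6w lay above the 90th percentile of the 1029 such spots of sham, which was 558 CPM.

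The other stress genes of cardiomyocytes were higher by less. Nppa, the atrial natriuretic peptide, stood at 220.2 CPM in sham, 241 CPM in TAC-2w, 3333 CPM in TAC-4w and 1044 CPM in TAC-6w, a ratio of TAC-6w to sham of 4.74 (4.56 to 4.93). Ankrd1, a titin-binding protein induced by stretch, stood at 433 CPM in sham, 238 CPM in TAC-2w, 1944 CPM in TAC-4w and 1957 CPM in TAC-6w, a ratio of 4.52 (4.39 to 4.64). Nmrk2, a muscle kinase of nicotinamide riboside, rested on 39 and 453 UMIs, with 3.11 CPM in sham and 16.9 CPM in TAC-6w and a ratio of 5.42 (3.91 to 7.73). The brain natriuretic peptide gene Nppb went from 139.6 to 308 CPM, a ratio of 2.20 (2.09 to 2.32), and stood at 638 CPM in TAC-4w. Myh7 was at 86.9 CPM in sham and 175 CPM in TAC-6w, a ratio of 2.01 (1.88 to 2.15), against 12686 CPM in TAC-4w. Of the 16 stress genes listed, 15 had at least 100 UMIs, 6 were at least 2-fold higher and none lower, and the ratios of the other 9 ran from 1.16 (Actn1) to 1.99 (Ankrd23). The median ratio of the 15 was 1.85, beside 1.07 over all genes. In spots of 20000 to 30000 UMIs 4 of the 15 were at least 2-fold higher. Corin, the protease that activates the product of Nppa, was lower, at 122 CPM in sham and 73.0 CPM in TAC-6w (ratio 0.596, 0.557 to 0.638).

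The promoters of 4 stress genes are shown because Acta1, Nppa, Nppb and Ankrd1 are stress genes past 2-fold at a level over 100 CPM in both sections. Each run gives the 250 bases before the RefSeq start (build GRCm38.p6, 5′ to 3′ on the strand of the gene), with capitals marking 3 motifs searched on both strands: the CArG box bound by serum response factor, the MCAT element CATTCC bound by TEAD factors, and GATAA, the core bound by GATA factors. The windows lie at chr8:123894776-123895025 (minus strand) for Acta1, chr4:148000472-148000721 (plus) for Nppa, chr4:147985650-147985899 (plus) for Nppb and chr19:36119845-36120094 (minus) for Ankrd1.
Acta1: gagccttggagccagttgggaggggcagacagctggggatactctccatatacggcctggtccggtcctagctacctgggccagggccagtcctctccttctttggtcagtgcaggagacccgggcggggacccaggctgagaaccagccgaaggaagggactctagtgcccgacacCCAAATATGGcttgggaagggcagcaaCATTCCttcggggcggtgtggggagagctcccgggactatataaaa
Nppa: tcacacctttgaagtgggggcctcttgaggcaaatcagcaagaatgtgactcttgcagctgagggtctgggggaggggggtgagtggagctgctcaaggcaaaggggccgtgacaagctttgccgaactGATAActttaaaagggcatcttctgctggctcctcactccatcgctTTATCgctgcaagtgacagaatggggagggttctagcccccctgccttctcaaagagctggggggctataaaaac
Nppb: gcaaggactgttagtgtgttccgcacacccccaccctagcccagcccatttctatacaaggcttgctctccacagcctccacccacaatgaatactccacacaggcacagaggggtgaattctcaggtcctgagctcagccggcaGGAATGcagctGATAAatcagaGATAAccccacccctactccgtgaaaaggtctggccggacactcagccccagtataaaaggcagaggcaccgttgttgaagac
Ankrd1: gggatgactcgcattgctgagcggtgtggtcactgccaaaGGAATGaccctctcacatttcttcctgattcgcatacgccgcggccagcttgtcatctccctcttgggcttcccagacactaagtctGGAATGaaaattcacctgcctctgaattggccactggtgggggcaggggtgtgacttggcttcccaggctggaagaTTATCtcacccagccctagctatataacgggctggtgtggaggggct

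Acta1 held 1 CArG box and 1 MCAT element, Nppa 2 GATAA matches, Nppb 1 MCAT and 2 GATAA matches and Ankrd1 2 MCAT elements and 1 GATAA match, and no match overlapped another motif. Among all 32851 windows of the same length, 1.47% held a CArG box, 12.6% an MCAT element and 22.6% a GATAA match. Of the 6 stress genes at least 2-fold higher, 4 had a window with an MCAT element (Acta1, Ankrd1, Myh7 and Nppb), and 1 a window with a CArG box (Acta1). A match describes the letters and is no evidence of binding.

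**Figure D2:**
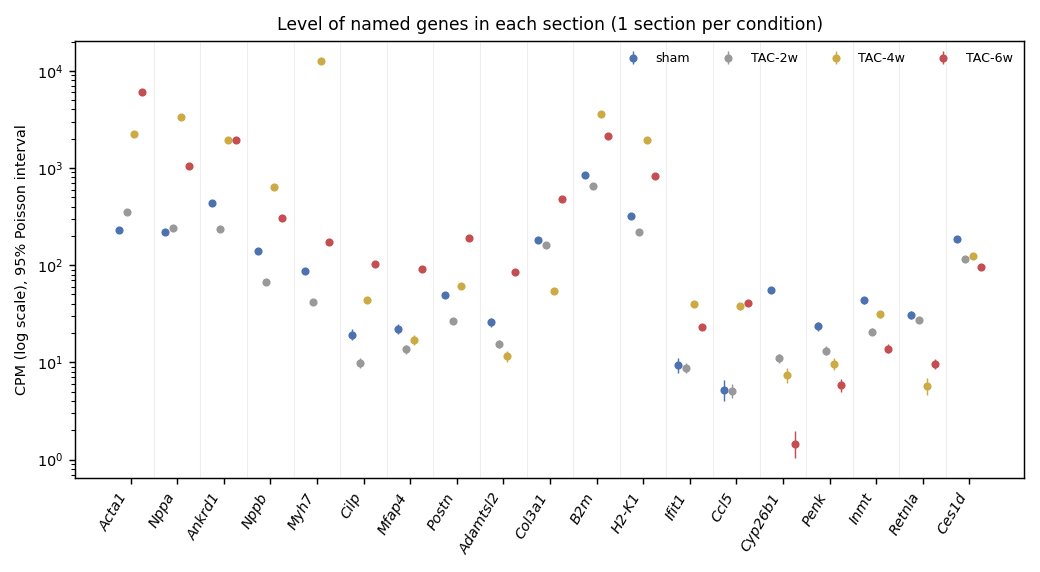
The level of named genes in CPM (y axis, log scale), with 1 point for each of the 4 sections and 95% Poisson intervals for counting error. Acta1, Cilp, Mfap4, Postn, Adamtsl2 and Col3a1 are highest in TAC-6w, Nppa, Nppb, Myh7, B2m, H2-K1 and Ifit1 in TAC-4w, and Cyp26b1, Penk, Inmt, Retnla and Ces1d in sham.

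Genes of the adult contractile apparatus stood close to their sham levels. Of 18 sarcomere genes, 1 was at least 2-fold higher and none lower, with a median ratio of 0.907. That gene was Myl1, a myosin light chain of fast skeletal and fetal muscle, at 29.2 CPM in sham and 69.2 CPM in TAC-6w (ratio 2.37, 2.12 to 2.66). Alpha-myosin heavy chain (Myh6) stood at 15191 and 12763 CPM, a ratio of 0.840 (0.835 to 0.845), the light chain Myl2 at 21927.5 and 17546 CPM, a ratio of 0.800, and cardiac alpha-actin (Actc1) at 11040.5 and 12306 CPM, a ratio of 1.11. None of the 12 calcium handling genes with enough UMIs was past 2-fold, and their median ratio was 0.892. The calcium pump of the sarcoplasmic reticulum (Atp2a2) was at 11187 CPM in sham and 8615 CPM in TAC-6w (0.770), and Strit1, a small peptide that activates it, at 125 and 72.1 CPM (0.575, 0.538 to 0.615). The medians of these families turned slightly above 1 when mitochondrial genes were kept in the total, which multiplies every ratio by 1.15, so no direction is given for them.

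Matricellular genes were the list with the most members past 2-fold. Of 24 matricellular and late fibrosis genes listed, 22 had enough UMIs, 15 were at least 2-fold higher and none at least 2-fold lower, with a median ratio of 2.32. Cilp, a matrix protein of cartilage and of scarred myocardium, had 241 UMIs (19.2 CPM) in sham, 9.79 CPM in TAC-2w, 43.5 CPM in TAC-4w and 2777 UMIs (103 CPM) in TAC-6w, a ratio of 5.38 (4.72 to 6.16) that came to 3.56 in spots of 20000 to 30000 UMIs. Postn, periostin of activated fibroblasts, stood at 49.3 CPM in sham, 26.8 in TAC-2w, 61.1 in TAC-4w and 191 in TAC-6w, a ratio of 3.87 (3.56 to 4.21). Mfap4, a protein of elastic microfibrils, was at 21.9, 13.7, 17 and 90.8 CPM in the same order, a ratio of 4.15 (3.66 to 4.72). Adamtsl2, which binds fibrillin, was at 25.9, 15.5, 11.6 and 85.6 CPM, a ratio of 3.30 (2.94 to 3.72). For these 4 genes TAC-6w was the highest of the 4 sections. Comp (4.10), Thbs4 (3.24), Ltbp2 (3.13), Ccn5 (2.99) and the transcription factor Meox1 (2.92) were also higher. Of these, Comp, Thbs4 and Ltbp2, with 35, 74 and 70 UMIs in sham, passed the UMI limit through TAC-6w alone. Thbs2, an inhibitor of vessel growth, was at 0.535, the single member below 1.

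Of 16 fibrillar collagen and crosslinking genes 5 were at least 2-fold higher, beside 1.92% of all genes, and none lower. The median ratio was 1.61, and 3 of the 16 were at least 2-fold higher in spots of 20000 to 30000 UMIs. Col3a1, the collagen of pliable fibrils, stood at 181 CPM in sham, 161 in TAC-2w, 54.3 in TAC-4w and 479.9 in TAC-6w (ratio 2.65, 2.53 to 2.77). Col1a1 stood at 97.4 CPM in sham and 229.8 CPM in TAC-6w (2.36, 2.22 to 2.51), and Col1a2, Col5a1 and Col5a2 had ratios of 2.15, 2.14 and 2.05. The other 11 ratios lay between 1.03 and the 2-fold limit, and the interval lay above 1 for 12 of the 16. Col8a1, a short-chain collagen outside that list, had 294 and 2485 UMIs, at 23.5 and 92.6 CPM (3.95, 3.5 to 4.47). Of 17 basement membrane genes 4 were at least 2-fold higher (Col4a3, Col15a1, Col4a4 and Sparc), with a median of 1.44, and Col4a1 stood at 1.95. Col4a3 and Col4a4, with 37 and 98 UMIs in sham, passed the UMI limit through TAC-6w alone. Among the small leucine-rich proteoglycans, which bind collagen fibrils, Fmod (18 and 133 UMIs, 3.45) and Bgn (269.9 and 596 CPM, 2.21) were past 2-fold, while Dcn (1.01) and Ogn (1.01) were at their sham levels.

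The summed level of 6 fibroblast markers was 3479.8 CPM in sham and 3570.3 CPM in TAC-6w, a ratio of 1.03 (1.01 to 1.04). Most of that sum was Gsn, at 2212 and 2095 CPM (0.947), and Dcn, at 939 and 950 CPM (1.01). Of the other markers, Dpt stood at 0.984, Pdgfra at 1.03, Pcolce at 1.67 and Col1a1 at 2.36. Matrix proteases and their inhibitors had a median of 1.06, with Timp1 at 8.38 and 17.1 CPM (2.04) and Mmp3, stromelysin, at 14.2 and 3.84 CPM (0.270, 0.210 to 0.346). TGF-beta drives fibroblasts to make matrix. Of 20 genes on a list of TGF-beta ligands, receptors and targets, Gdf15 was past 2-fold, at 18 and 198 UMIs (5.14, 3.17 to 8.85). Gdf15 passed the UMI limit through TAC-6w alone, and whether it acts on matrix was not tested. The ligands stood at 1.4 (Tgfb1), 1.98 (Tgfb2) and 1.52 (Tgfb3) and the receptors at 1.06 (Tgfbr1) and 1.05 (Tgfbr2).

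The genes differed in where they lay in the section. Acta1 was at a similar level at the edge and inside in the TAC-6w section. It stood at 6306 CPM in the 168 spots at the tissue edge (fewer than 6 neighbours on tissue) and 6038 CPM in the 2025 other spots. Among TAC-6w spots with at least 5000 counted UMIs, the 10th and 90th percentiles of Acta1 were 2814 and 9182 CPM. In sham it stood at 397 CPM in the 150 edge spots and 202 CPM in the interior, a ratio of 1.97 (1.8 to 2.14). Nppa lay inside in both sections, at 44.8 CPM at the edge and 247 CPM in the interior of sham and at 391 and 1118 CPM in TAC-6w. The 10% of spots with the most UMIs of a gene held 55.1% of the Nppa UMIs of TAC-6w and 29.9% of its Acta1 UMIs. The sum of Cilp, Postn, Mfap4, Col8a1 and Adamtsl2 was compared among spots with at least 5000 counted UMIs. Its median spot level was 94.6 CPM in sham and 421 CPM in TAC-6w, and 66.8% of these TAC-6w spots lay above the 90th percentile of sham. Thbs4 was the most focal of the matrix genes named, with 76 of its 513 UMIs (14.8%) in a single spot of TAC-6w.

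**Figure D3:**
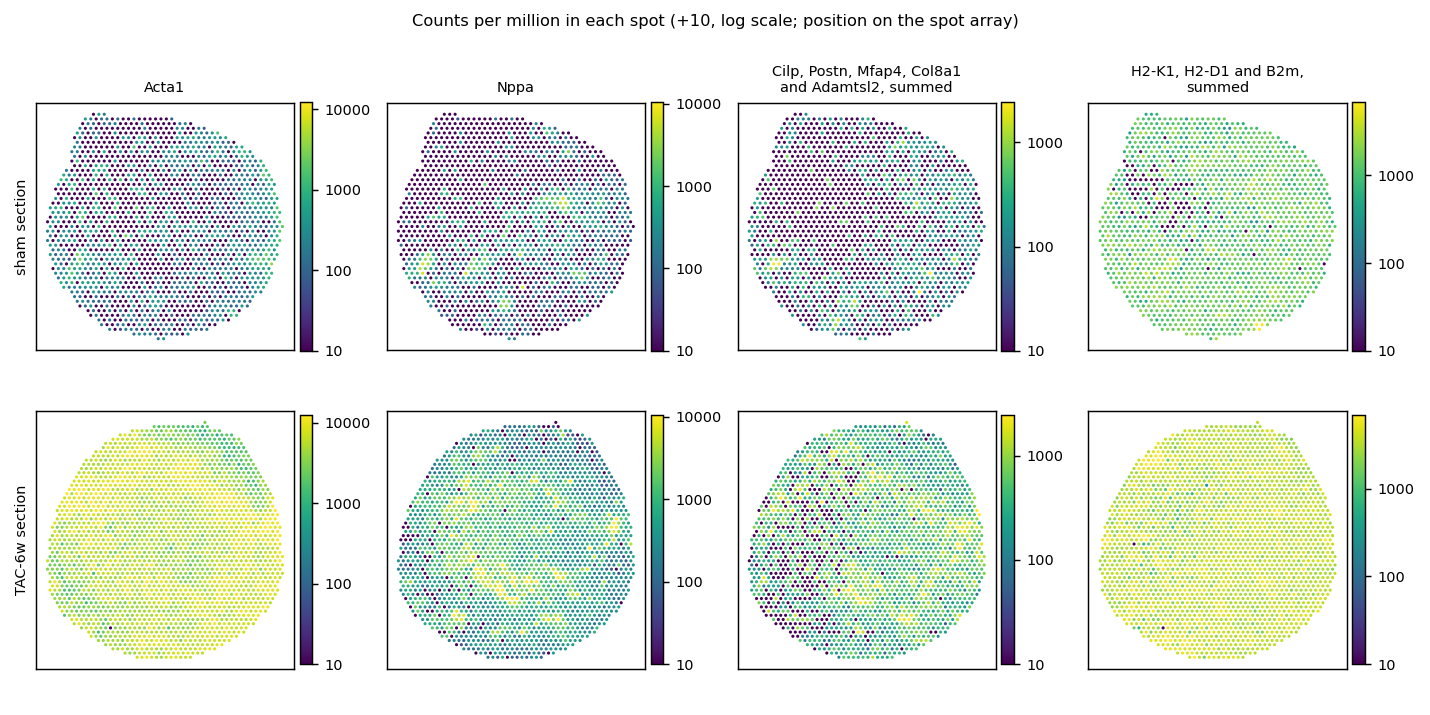
CPM per spot at its place on the array (colour, log scale after adding 10) in the sham section (top) and the TAC-6w section (bottom) for Acta1, Nppa, a sum of 5 matrix genes and a sum of 3 MHC class I genes, with a shared colour scale in each column. Acta1 and the MHC class I sum are high over nearly the whole TAC-6w section, Nppa and the matrix genes in patches; the darkest spots hold no UMI of the genes, and sham spots are shallower.

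Genes of antigen presentation were higher in the section labelled TAC-6w. MHC class I molecules show peptides to T cells. The class I list of 10 genes also held Tap1, Tap2, Tapbp and Nlrc5, which do not encode such molecules. Of the 10, 5 were at least 2-fold higher, beside 1.92% of all genes, and none lower, with a median ratio of 1.99. Nlrc5, past 2-fold on 41 and 195 UMIs, passed the UMI limit through TAC-6w alone. Their shared light chain B2m stood at 841 CPM in sham, 649 in TAC-2w, 3579 in TAC-4w and 2109.6 in TAC-6w (ratio 2.51, 2.46 to 2.56). H2-K1 stood at 319.8, 217, 1960.3 and 822 CPM in the same order (2.57, 2.49 to 2.66), and H2-D1 at 348, 262, 1296 and 726 CPM (2.09, 2.02 to 2.16). H2-Q7 had a ratio of 3.19, but its reads can be shared with the near-identical H2-Q6. The sum of H2-K1, H2-D1 and B2m was compared among spots with at least 5000 counted UMIs, which left out 662 spots of TAC-6w and 647 of sham. Of the remaining TAC-6w spots, 97.4% lay above the 90th percentile of sham. The MHC class II genes, of antigen-presenting cells, stood between 1.69 (H2-DMb1) and 2.11 (H2-Eb1) in 6 members.

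Interferon-inducible genes were higher too, at lower counts. Of 27 members 8 were at least 2-fold higher (Ifit1, Irf7, Usp18, Gbp3, Ifit3, Ifi44, Ifi27 and Ifit2) and none lower. Over all genes 1.92% were higher and 0.259% lower by that limit. The median ratio of the list was 1.68. Usp18, Gbp3, Ifi44 and Ifit2, with 58, 92, 64 and 74 UMIs in sham, passed the UMI limit through TAC-6w alone. Ifit1, which binds foreign RNA, stood at 9.34 CPM in sham, 8.77 in TAC-2w, 39.6 in TAC-4w and 23.1 in TAC-6w (2.47, 2.03 to 3.04), and Irf7, a factor that amplifies interferon, at 12.0, 12.5, 65.0 and 28.7 CPM (2.39, 2.01 to 2.87). In both, TAC-6w lay between sham and TAC-4w. The windows of Ifit3 (chr19:34583279-34583528, plus) and Ifit1 (chr19:34640639-34640888, plus) are shown with the interferon-stimulated response element, searched as GAAANNGAAA on both strands, in capitals.
Ifit3: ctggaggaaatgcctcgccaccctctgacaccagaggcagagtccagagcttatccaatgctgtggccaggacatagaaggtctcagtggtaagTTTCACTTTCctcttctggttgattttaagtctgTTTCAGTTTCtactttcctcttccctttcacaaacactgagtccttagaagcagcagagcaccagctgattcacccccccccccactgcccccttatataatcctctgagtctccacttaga
Ifit1: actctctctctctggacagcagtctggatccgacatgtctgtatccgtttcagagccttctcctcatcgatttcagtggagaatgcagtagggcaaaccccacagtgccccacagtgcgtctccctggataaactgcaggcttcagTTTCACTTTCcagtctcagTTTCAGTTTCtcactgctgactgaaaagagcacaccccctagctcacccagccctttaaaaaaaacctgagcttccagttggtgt

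Each held 2 such elements on the strand opposite to the gene. Of all 32851 windows 2.98% held 1 or more, and of the 21 interferon-inducible genes with a window 12 did, of which Gbp3, Ifit1 and Ifit3 were past 2-fold.

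Transcripts of T and NK cells were rare in sham and more frequent in TAC-6w. The summed level of the T and NK cell markers was 5.67 CPM in sham, 3.13 in TAC-2w, 16.5 in TAC-4w and 24.4 in TAC-6w (ratio 4.31, 3.37 to 5.58). Ccl5, a chemokine of T and NK cells, had 65 UMIs in 31 spots of sham and 1098 UMIs in 554 spots of TAC-6w (5.19 and 40.9 CPM, ratio 7.89, 6.14 to 10.3). Nkg7 (20 and 250 UMIs, 5.84), the protease gene Gzma (11 and 144 UMIs, 6.11) and Trbc2, the constant part of the T cell receptor beta chain (16 and 210 UMIs, 6.13), followed it. Ly6c2, a surface protein of inflammatory monocytes and some T cells, had the second largest ratio, on 13 and 304 UMIs (10.9, 6.29 to 20.7). Ccl5, Nkg7, Gzma, Trbc2 and Ly6c2 all passed the UMI limit through TAC-6w alone, and all were among the genes named for the largest ratios. These markers moved with the MHC and interferon genes above, and their part in those results was not tested. The macrophage markers, summed, stood at 291 and 357 CPM (1.23, 1.18 to 1.28), and those of monocytes and neutrophils, listed together, at 61.0 and 40.2 CPM (0.659). The members of that joint list went both ways. S100a8 (0.484), S100a9 (0.441) and Retnlg (0.305) were lower. Ly6c2 was higher, and Plac8 (15 and 60 UMIs, 1.87) and Chil3 (3 and 16 UMIs, 2.49) lay above 1 on few UMIs. Igha, the heavy chain of IgA, had 16 and 207 UMIs (6.04, 3.63 to 10.8), of which 42 in TAC-6w came from 1 spot. Igha too passed the UMI limit through TAC-6w alone. Ratios on so few UMIs differed between classes of spots. In spots of more than 30000 UMIs those of Nkg7, Gzma and Igha were 1.34, 1.41 and 1.48, and in spots of 20000 to 30000 UMIs 8.03, 10.8 and 24.9.

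Of the 6 markers of dividing cells 5 were at least 2-fold higher in the section labelled TAC-6w, beside 1.92% of all genes. They were Cdk1 (4.56), Birc5 (3.56), Top2a (3.51), Mki67 (3.01) and Ccnb2 (2.92). These 5 had 26 to 61 UMIs in sham and passed the limit of 100 UMIs through TAC-6w alone. Of all 2055 genes that passed through TAC-6w alone, 140 were at least 2-fold higher, which is the closer comparison for these 5. Stmn1, which passed in both, stood at 51.4 and 39.6 CPM (0.771), and the 6 summed to 65.6 and 88.1 CPM (1.34). The 393 Mki67 UMIs of TAC-6w lay in 306 spots. Over all kept barcodes of the libraries, all 6 were lower in TAC-6w, from 0.278 (Mki67) to 0.556 (Ccnb2). Among the 15 largest section ratios, Mxd3, a member of the MYC and MAX network, had 5 UMIs in sham and 107 in TAC-6w (0.399 and 3.99 CPM, ratio 9.99, 4.15 to 31.4), and 1.88 in spots of fewer than 10000 UMIs. The spindle proteins Ckap2l (11 and 144 UMIs, 6.11) and Ckap2 (10 and 120 UMIs, 5.6) and the mitotic kinase Pbk (11 and 119 UMIs, 5.05) also passed through TAC-6w alone, and over all kept barcodes their ratios were 0.421, 0.703 and 0.368. Cenpf, a centromere protein of dividing cells named here after its value was seen, was among the lower genes of the section, with 165 and 169 UMIs (13.2 and 6.30 CPM, 0.478).

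The 6 capillary endothelial markers summed to 2516 CPM in sham and 3773 CPM in TAC-6w (ratio 1.5, 1.48 to 1.52), and most of that sum was Fabp4, a fatty acid carrier of capillaries, at 1835 and 2961 CPM (1.61). Of the others, Cldn5 stood at 1.64, Kdr at 1.36, Cdh5 at 1.28 and Pecam1 at 1.2, and Flt1, a receptor of vascular growth factor, at 154 and 121 CPM (0.787, 0.744 to 0.833). Aplnr, the apelin receptor of endothelial cells, stood at 20.8 CPM in sham, 20.1 in TAC-2w, 3.86 in TAC-4w and 61.0 in TAC-6w (2.93, 2.57 to 3.35). Aqp8, a water channel, had 43 UMIs in 43 spots of sham and 578 UMIs in 444 spots of TAC-6w (6.28, 4.60 to 8.77), with 3.43 CPM in sham, 1.64 in TAC-2w, 2.34 in TAC-4w and 21.5 in TAC-6w. Smooth muscle markers were lower, summing to 395 and 275 CPM (0.695, 0.671 to 0.721), and 0.465 in spots of 20000 to 30000 UMIs. Of these, Myl9 stood at 92.6 CPM in sham and 60.3 CPM in TAC-6w (0.651).

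Few genes of energy metabolism were past 2-fold. Of 32 genes of fatty acid uptake and oxidation, the main fuel pathway of the adult heart, Angptl4 (10.8 and 32.5 CPM, 3.02) and Pdk4 (161 and 369 CPM, 2.29) were at least 2-fold higher and none lower. Angptl4 inhibits lipoprotein lipase, whose own gene Lpl stood at 6601 and 4838 CPM (0.733), and Pdk4 restrains pyruvate oxidation. Of 27 glycolysis genes Pfkfb1 was past 2-fold, at 14.4 and 4.70 CPM (0.327). None of the 84 nuclear genes of the respiratory chain was past 2-fold, with ratios of 0.757 to 1.35 and a median of 0.937 that turned above 1 with mitochondrial genes in the total. Of 81 ribosomal protein genes none was past 2-fold, but 80 lay above 1 (median 1.17), beside 64.9% of all genes. The exception was the muscle form Rpl3l (0.728). The median ratio of the ribosomal list to sham was larger in the other sections, at 1.31 in TAC-2w and 1.41 in TAC-4w. Of the 17 mitochondrial tRNA synthetases none was past 2-fold. Lars2, which charges mitochondrial leucine tRNA, stood at 845 CPM in sham, 511 in TAC-2w, 427 in TAC-4w and 676 in TAC-6w (0.801, 0.782 to 0.820), and at 0.930 in spots of 20000 to 30000 UMIs. The nuclear RNA Malat1 stood at 1140.3, 730.4, 906 and 690.3 CPM in the 4 sections in the same order (0.605, 0.592 to 0.619), and Gsn, a fibroblast gelsolin, at 2212 and 2095 CPM (0.947).

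The 28 lower genes were led by enzymes and secreted proteins at low levels. Cyp26b1, which breaks down retinoic acid, had 696 UMIs in 478 spots of sham and 39 UMIs in 39 spots of TAC-6w. Its level was 55.5 CPM in sham, 11 in TAC-2w, 7.34 in TAC-4w and 1.45 in TAC-6w, 38.2-fold lower in TAC-6w than in sham. In sham it stood at 54.4 CPM at the edge and 55.7 CPM in the interior. It was the only one of 9 retinoid metabolism genes past 2-fold, and Aldh1a2, which makes retinoic acid, stood at 1.69. Ighg1, the heavy chain of IgG1, had 143 UMIs in sham, 41 of them in 1 spot, and 0 in the other 3 sections. With TAC-6w set to the floor of 3 UMIs (0.112 CPM), it was 102-fold lower there, a size that the floor sets. Without the highest spot of sham the ratio at that floor was 0.0137. The chemokine Ccl1 had 118 UMIs in sham, of which 68 lay in 1 spot, and 18 in TAC-6w, and its ratio was 0.577 in spots of 20000 to 30000 UMIs.

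Further lower genes encode secreted proteins and enzymes. Penk, proenkephalin, stood at 23.5 CPM in sham, 13.1 in TAC-2w, 9.67 in TAC-4w and 5.81 in TAC-6w (0.248, 0.203 to 0.302), and the chemokine Cxcl14 at 46.0, 23.3, 33.1 and 16.8 CPM (0.364, 0.321 to 0.413). Inmt, a methyltransferase of small amines, stood at 43.5 CPM in sham and 13.8 CPM in TAC-6w (0.318, 0.278 to 0.363). Retnla, a secreted protein of resident macrophages, stood at 30.7 and 9.65 CPM (0.314, 0.267 to 0.369). Inmt had a higher level at the edge than inside in both sections, at 65.7 and 40.1 CPM in sham and 60.1 and 8.59 CPM in TAC-6w, where 164 of its 371 UMIs lay at the edge. Retnla stood at 16.7 CPM at the edge and 32.9 CPM inside in sham and at 36.3 and 6.64 CPM in TAC-6w, where 99 of its 259 UMIs lay at the edge. Of the Retnla UMIs of TAC-6w 55 of 259 came from 1 spot. The remaining names at the lower end were Lvrn (0.239), Amd2 (0.271), the amylase Amy1 (0.332), Gm36827 (0.385) and Armh4 (0.386), and reads of Amd2 can be shared with its close copy Amd1.

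Acute-phase genes had no member past 2-fold upward and 3 downward among 10, beside 1.92% and 0.259% of all genes. The neutrophil alarmins S100a8 and S100a9 stood at 23.9 and 28.6 CPM in sham, 4.11 and 4.91 in TAC-2w, 69.3 and 62.3 in TAC-4w and 11.6 and 12.6 in TAC-6w (0.484 and 0.441), and 110 of the 311 S100a8 UMIs of TAC-6w lay in 1 spot. Serpina3n, a protease inhibitor, stood at 39.2, 9.72, 144 and 17.7 CPM (0.452, 0.397 to 0.514). Hba-a2, alpha-globin of red blood cells, stood at 5667 CPM in sham and 2928 CPM in TAC-6w (0.517), and at 0.955 in spots of 20000 to 30000 UMIs, with reads that can be shared with its copy Hba-a1. Among abundant genes the lowest ratio was that of Ces1d, a carboxylesterase of lipid droplets, at 185 and 94.7 CPM (0.511, 0.483 to 0.541), followed by Hba-a2 and then Pik3r1 (0.538), a regulatory subunit of PI3-kinase, and Ppip5k2 (0.546).

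**Figure D4:**
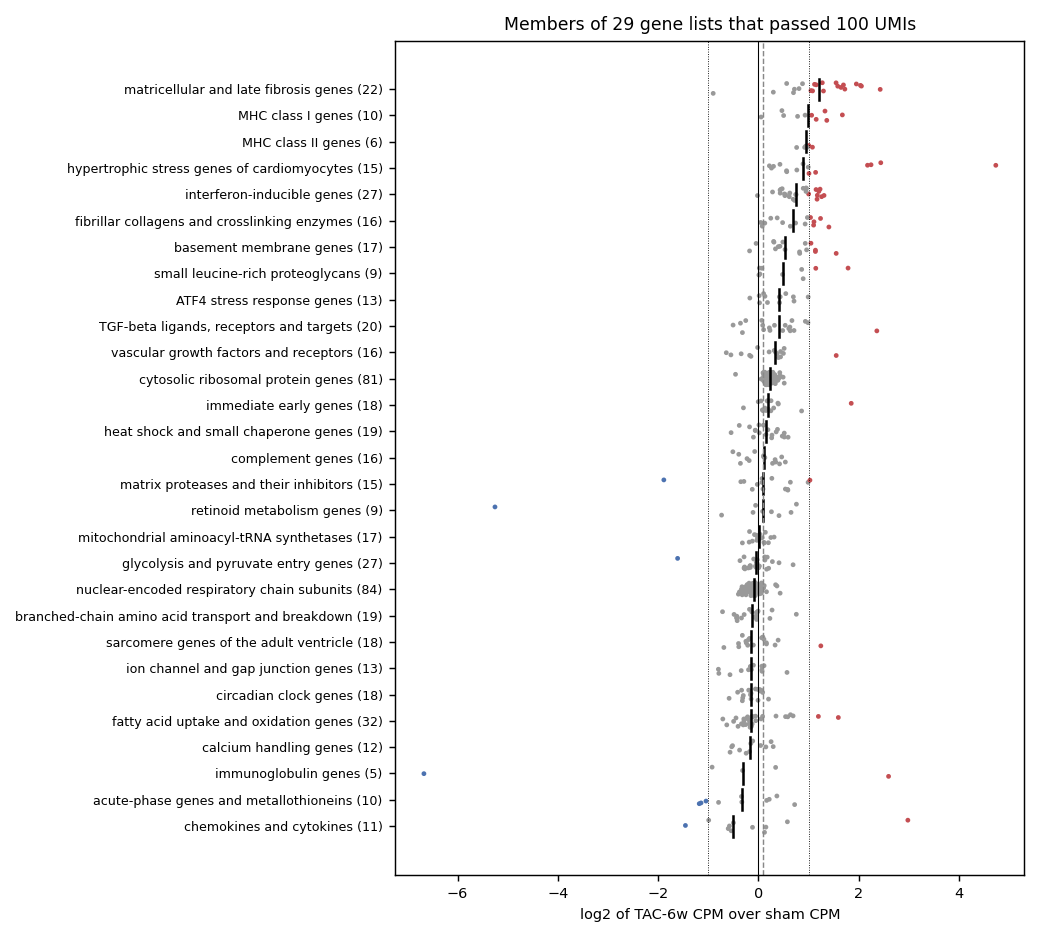
Log2 ratio of TAC-6w to sham (x axis) for each member with at least 100 UMIs of 29 gene lists (rows, number of members in brackets), with the list median as a black bar, dotted lines at 2-fold and a dashed line at the median of all genes. Matricellular genes (median ratio 2.32), MHC class I and II genes and stress genes lie farthest to the right; Ighg1 is drawn at the floor of 3 UMIs.

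The single-cell libraries of the same 2 conditions, which the selection of genes did not use, gave a second view of these genes. By the labels both libraries belong to batch 3, and their material is described as nuclei in the labels and as cells in the methods. After the filters 8228 barcodes of sham and 5577 of TAC-6w remained, with medians of 9250.5 and 4828 UMIs, and 21 barcode sequences occurred in both libraries. Doublets were not removed. A gate of at least 3 of Pdgfra, Dcn, Col1a1, Col1a2, Dpt and Pcolce and no UMI of Ptprc, Pecam1 or Cdh5 left 3761 and 2747 fibroblast barcodes. In them 166 of 11075 genes (1.5%) were at least 2-fold higher in TAC-6w and 402 (3.63%) at least 2-fold lower, with a median ratio of 0.929.

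Most of the matricellular genes higher in the section lay above 1 in these barcodes as well. Of those 15 genes, 12 lay above 1 and 3 below. At least 2-fold higher were 6, and none was at least 2-fold lower, with a median ratio of 1.66. Cilp stood at 160.2 CPM in the sham library and 496 CPM in the TAC-6w library (3.10, 3.00 to 3.2), Postn at 256 and 721 CPM (2.81, 2.74 to 2.89), Ltbp2 at 33.2 and 107 CPM (3.23) and Thbs4 at 10.0 and 97.8 CPM (9.76, 8.73 to 10.9). Col8a1 had a ratio of 2.45 and Comp of 1.93. Mfap4, 4.15-fold higher in the section, stood at 552 and 587 CPM (1.06), and Col3a1, 2.65-fold higher in the section, at 3020 (3020.4) and 1885 CPM (0.624). Of the genes named here, Cilp, Postn, Ltbp2, Thbs4 and Col8a1 were at least 2-fold higher in both kinds of data. Comp, Mfap4 and Col3a1 were so in the section alone. Ltbp2 and Thbs4 had passed the UMI limit of the sections through TAC-6w alone.

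The interferon-inducible genes had the opposite direction in the libraries. Of the 8 higher in the section, 7 were at least 2-fold lower in the gated barcodes, with a median ratio of 0.325. Ifit1 stood at 76.0 CPM in the sham library and 16.2 CPM in the TAC-6w library (0.213), Ifit3 at 80.9 and 24.8 CPM (0.307) and Irf7 at 66.3 and 25.3 CPM (0.381), and over all kept barcodes 7 of the 8 were likewise at least 2-fold lower (background 5.75%). The class I genes were also below 1, with B2m at 0.800 and H2-K1 at 0.815. Over all kept barcodes Ccl5 (0.334), Gzma (0.170) and Nkg7 (0.368) were lower in the TAC-6w library, and S100a8 (3.31) and S100a9 (3.62) higher, each opposite to the section. Of the cardiomyocyte genes, Acta1 stood at 1.47 and 10.4 CPM and Nppa at 149.9 and 12.0 CPM over all kept barcodes. Of the 208 genes higher in the section 123 had enough UMIs in the gated barcodes, where 17 were at least 2-fold higher and 11 at least 2-fold lower. Over all kept barcodes, 252 of 13034 genes (1.93%) were at least 2-fold higher and 749 (5.75%) at least 2-fold lower. The median ratio over those 13034 genes was 0.897. Of the 208 genes, 182 had enough UMIs in all kept barcodes. Of these, 14 were at least 2-fold higher and 33 at least 2-fold lower, and 109 had a ratio below 1. Of the 28 lower genes 18 had enough UMIs in the gated barcodes, with 2 at least 2-fold higher and 4 at least 2-fold lower. Cyp26b1 rested on 44 and 32 UMIs there, and over all kept barcodes it stood at 1.47 CPM in the sham library and 12.7 CPM in the TAC-6w library (8.61), opposite to the section.

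**Figure D5:**
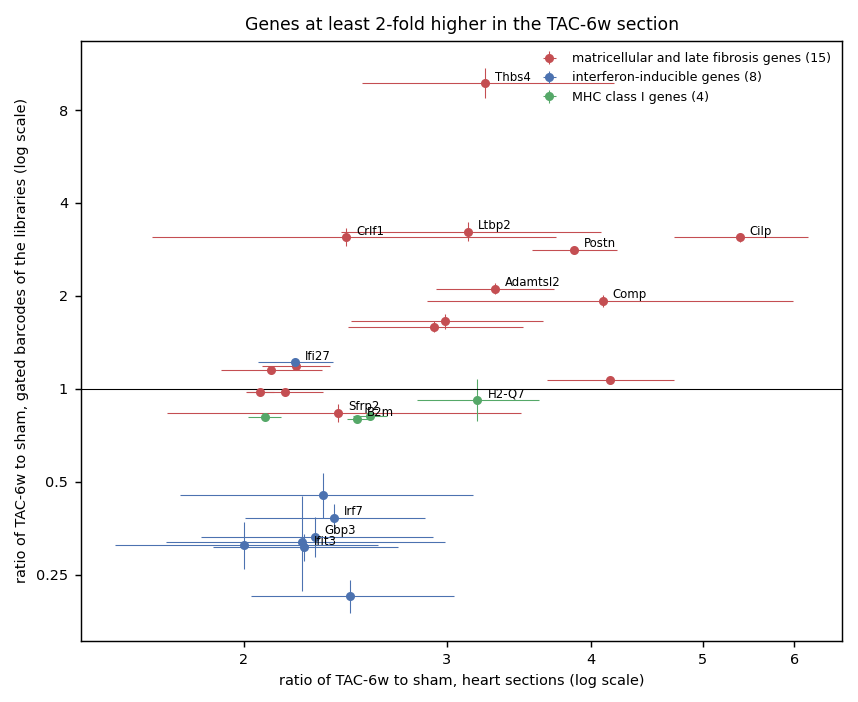
Ratio of TAC-6w to sham in the heart sections (x axis) and in the gated fibroblast barcodes of the libraries (y axis), both on log scales with 95% counting intervals, for genes at least 2-fold higher in the TAC-6w section and with at least 100 UMIs in either library. Matricellular genes lie mostly above 1 on the y axis, up to 9.76 for Thbs4, and interferon-inducible genes between 0.213 and 0.453 except Ifi27.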

How the data were processed

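Space Ranger (sections) and Cell Ranger (libraries), with mm10, gave the raw UMI counts that the authors deposited, which are not normalized. The file headers name versions 1.2.0 and 6.0.0 and the submitters' processing notes 1.3.1 and 7.0.0. Everything else was computed here with Python 3.11.15, numpy 2.4.6, scipy 1.17.1 and pandas 2.3.3, and TMM factors with edgeR 4.0.16 under R 4.3.3. Counts were summed over all spots and divided by the section total without mitochondrial genes, Gm42418, Gm26917 and AY036118. Genes needed 100 UMIs in either section. Counts under 3 were set to 3 for a ratio. Ratios have exact conditional binomial 95% intervals and section levels exact Poisson intervals, and the interval was tested on simulated data. With 1 section per condition there is no test. The share over all genes, beside which counts of list members past 2-fold are to be read, was 1.92% higher and 0.259% lower.

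A library barcode needed 200 to 6000 genes, 500 to 30000 UMIs and under 15% mitochondrial UMIs. For a symbol with several identifiers, the one with most UMIs was used. Genes were named by rule: the 15 largest and 15 smallest ratios, the 10 at each end among genes with at least 2000 UMIs over both sections, list members past 2-fold or among the 4 with most UMIs, genes the study names for its spots, and cell type markers. The 29 gene lists and the members were chosen with earlier results of these data known. Promoter windows are from RefSeq (GRCm38.p6). Alternatives changed the total, the filter, the spots or the scaling, 1 at a time. A result for 1 gene at the lower end is not reported here.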

Additional observations from a re-analysis of the deposited data

How the results depend on the processing

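Counts of genes past 2-fold depended on the filter and on the depth of the spots used. Genes at least 2-fold higher, 208 in all, numbered 375 with all features in the total, 55 of 6509 in spots of 20000 to 30000 UMIs, 66 in spots of 10000 to 20000, 345 in spots of more than 30000, 99 in spots of fewer than 10000, 629 with at least 20 UMIs, 819 without a filter, 71 with at least 500 UMIs and 87 where the interval bound nearest to 1 passed 2-fold. Genes at least 2-fold lower, 28 in all, numbered 18 in spots of 10000 to 20000 UMIs, 7 in spots of fewer than 10000, 45 with median of ratios size factors, 114 with at least 20 UMIs, 444 without a filter, 6 with at least 500 UMIs and 18 by the interval bound. TMM factors gave 172 higher and 42 lower genes, and the requirement of 200 UMIs over both sections 142 and 24. Fewer genes passed 100 UMIs within a depth class, and otherwise the cause was not tested. All features in the total multiplied every ratio by 1.15, since sham held the larger mitochondrial share, and turned the medians of 8 lists below 1 (sarcomere, calcium handling, ion channel, fatty acid, glycolysis, respiratory chain, branched-chain amino acid and clock genes) to above 1. Of the 83 named genes past 2-fold, 2 changed direction, both in spots of fewer than 10000 UMIs: Ifit2 (0.706) and Cxcl14 (1.15). No paired analysis was possible because each condition had 1 section, and leaving out a replicate was not possible either.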

Other observations

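Of the stress and housekeeping lists not described above, the immediate early genes alone had a member past 2-fold in the section labelled TAC-6w. Of 13 targets of the amino acid response factor ATF4, none was past 2-fold and 12 lay above 1, beside 64.9% of all genes. Mthfd2, of mitochondrial folate metabolism, was closest to the limit at 1.99. Of 19 heat shock and chaperone genes none was past 2-fold, with the small chaperone Hspb6 at 909 and 1368 CPM (1.51) and Hspa8 at 1436 and 1101 CPM (0.767). The 18 clock genes had a median of 0.902 and the 16 complement genes of 1.08, with C3 at 316 CPM in sham, 93.6 in TAC-2w, 374 in TAC-4w and 222 in TAC-6w (0.702). Of 18 immediate early genes Nr4a1, an orphan nuclear receptor, was past 2-fold, at 10.5, 13.3, 63.9 and 38.0 CPM (3.61, 3.00 to 4.36). Of 19 genes of branched-chain amino acid transport and breakdown none was past 2-fold, and Bckdha, a subunit of the enzyme that commits these amino acids to breakdown, stood at 396 and 294 CPM (0.743).

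Mesothelial markers, of the heart's outer lining, were at 11.2 CPM summed in sham and 22.5 CPM in TAC-6w (2.01, 1.67 to 2.44), with Upk3b at 2.05. B cell markers stood at 16.8 and 22.5 CPM (1.34, 1.14 to 1.57), pericyte markers at 1128 and 1104 CPM (0.979) and lymphatic markers at 172 and 137 CPM (0.798). The lymphatic markers went both ways. Lyve1 (0.558), Ccl21a (0.669) and Mmrn1 (0.777) lay below 1, and Prox1 (1.08), Flt4 (1.16) and Pdpn (1.28) above it. Adipocyte markers had at most 0.160 CPM in all in either section.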
